A study of Homo sapiens with 82 samples.

Results

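The genes described are the ATP-binding cassette (ABC) transporter genes of subfamilies A to G other than ABCA1 and ABCG1, the sterol exporters best known as targets of the liver X receptors (LXR). They were taken by name alone, as every row of the count tables whose symbol is ABC followed by a subfamily letter from A to G and a number. Of the 51838 rows in each table, 46 matched and 44 remained without ABCA1 and ABCG1. Subfamily A has 11 of them, B has 9, C has 12, D has 4, E has 1, F has 3 and G has 4. RNA came from HT29, a human colorectal adenocarcinoma cell line, held before treatment in medium free of phenol red with charcoal-treated serum. It was sequenced in 32 libraries, 4 in each of 8 groups. Cells received DMSO, the solvent, or 10 µM GW3965, T0901317 or rosiglitazone, for 24 or 48 h. GW3965 and T0901317 are LXR agonists, and rosiglitazone is an agonist of the peroxisome proliferator-activated receptor gamma (PPARG). The 3 drugs of a time point share 1 DMSO group of 4 libraries, separate from that of the other time, so their comparisons are not independent of each other. HT29 is 1 line, and the labels do not say that replicates were separate cultures, so p-values measure the spread between these libraries.

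ABC proteins use the energy of ATP to move molecules across membranes, and their subfamilies divide the work. Those of subfamily A mostly handle lipids, those of B include drug efflux pumps and mitochondrial transporters, those of C export organic anions and conjugates, those of D carry fatty acyl groups into peroxisomes or vitamin B12 out of lysosomes, and those of G move sterols or drugs. ABCE1 and the F proteins lack membrane domains and work on ribosomes. LXR are sterol sensors that switch on cholesterol export, and PPARG governs fatty acid use. In the intestine, ABC pumps on the apical face of the epithelium return drugs, conjugates and plant sterols to the lumen.

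Levels are given as CPM, a read count scaled by the TMM-adjusted library total, and changes as log2 fold changes with standard errors (SE) from edgeR's quasi-likelihood test. Calls required an adjusted p (Benjamini-Hochberg) under 0.01, the study's limit for adjusted p, over all 21781 genes tested at 24 h or 22470 at 48 h. The study also required a minimum fold change, and calls here did not. Total counts per library ran from 21044798 to 51332656, and the biological coefficient of variation was 0.0981 at 24 h and 0.101 at 48 h. All 7 intestinal epithelial markers were at 1 CPM or more in every library, and their summed level ran from 9015 to 13246 CPM. Of the 4 fibroblast markers, the 4 immune markers, the 2 endothelial and the 3 hepatocyte markers present, COL1A1 and CD68 alone passed 1 CPM in every library, and the others stayed below 1 CPM in all. ABCA1 rose by 4.61 (log2) with GW3965 and by 3.71 with T0901317 at 24 h. In bulk RNA, fewer cells that express a gene and less RNA per cell cannot be told apart.

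Of the 44 genes, 26 were expressed, which here means at least 1 CPM in all 4 libraries of at least 1 group. They were 5 of 11 in subfamily A, 5 of 9 in B, 8 of 12 in C, 3 of 4 in D, ABCE1, all 3 in F and 1 of 4 in G. The low-count filter of the test kept 29 genes at 24 h and 31 at 48 h, and it removed 13 at both. These 13 were ABCA6, ABCA8, ABCA9, ABCA12, ABCB5, ABCB11, ABCC9, ABCC12, ABCC13, ABCD2, ABCG4, ABCG5 and ABCG8, with at most 14 counts in any library. ABCC12 had 0 counts in all 32 libraries. ABCG5 and ABCG8, which pair to pump sterols back into the gut lumen and are textbook LXR targets, summed to 7 and 4 counts over the 4 libraries of GW3965 at 48 h, to 18 and 3 with T0901317 and to 4 and 0 in DMSO. ABCB11, the bile salt export pump of the liver, had between 0 and 14 counts. No change of these 13 genes was detectable at this depth. Gene lengths were not used, so levels of different genes are not compared.

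Of the 31 genes tested, 24 were called in at least 1 of the 6 comparisons of a drug with DMSO, 17 of them higher only, 4 lower only and 3 in both directions. At 24 h, GW3965 raised 3 of 29, ABCC2 and ABCC4 among them, and lowered 1 (ABCG2), where 1.86% of all genes tested were called higher and 0.868% lower. T0901317 raised 3, ABCC4 and ABCG2 among them, and lowered 0, where 1.33% of all genes were called higher and 0.119% lower. Without the low-count filter or with DESeq2, T0901317 had 4 called higher and again 0 lower at 24 h, and 9 of the 29 had an unadjusted p under 0.05. At 48 h, GW3965 raised 11 of 31 and lowered 4, against 16.1% and 17.5% of all genes. T0901317 raised 13 and lowered 4, against 14% and 16.1% of all genes. The median log2 fold change over the 31 genes was 0.20 with GW3965 and 0.23 with T0901317 at 48 h, beside 0.00 and 0.01 over all genes. With rosiglitazone, 4 of 29 were called higher and 1 lower at 24 h, against 5.81% and 6.52% of all genes, and 7 of 31 higher and 2 lower at 48 h, against 12.3% and 13.1%. Scaling by library size alone changed the rosiglitazone counts to 2 higher against 4 lower (24 h) and 3 higher against 8 lower (48 h), and moved the median of all genes to -0.11 and -0.19.

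**Figure D1:**
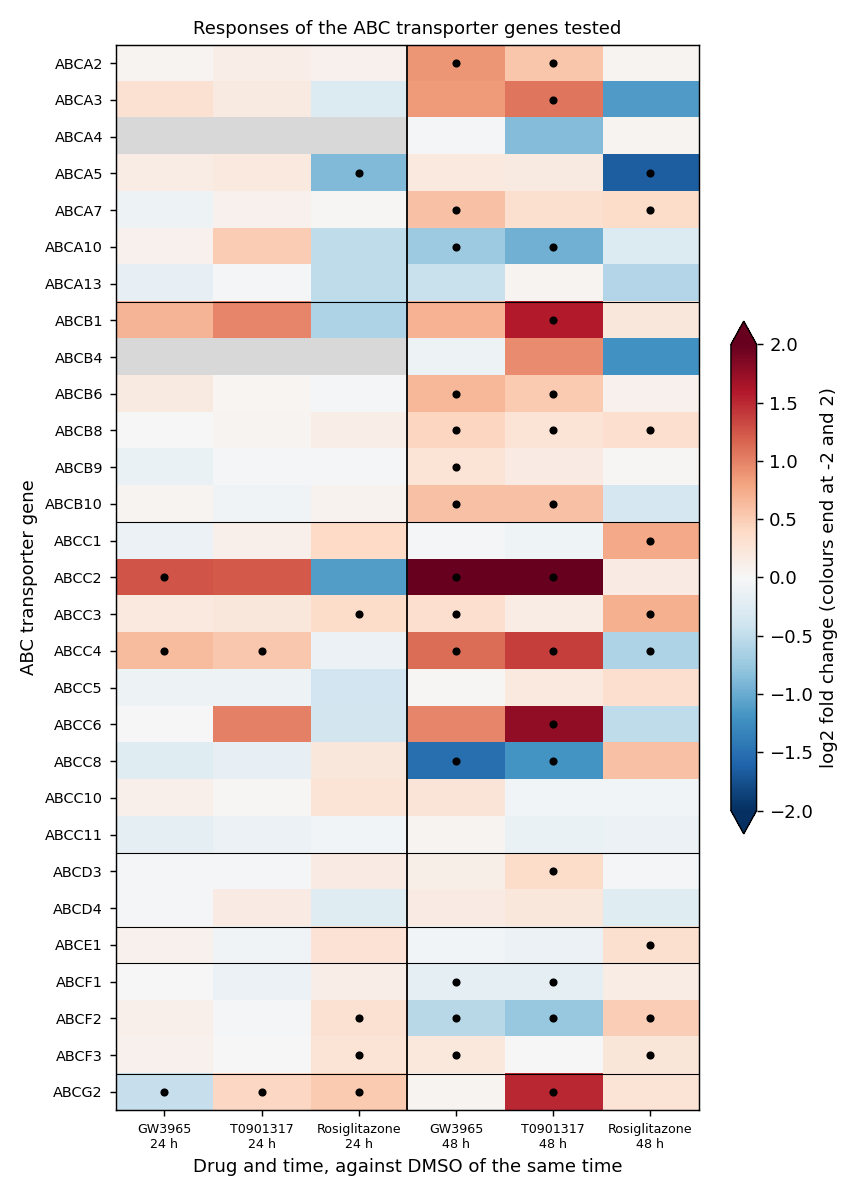
Log2 fold change of 29 of the ABC transporter genes tested (rows, by subfamily) against DMSO for each drug at 24 and 48 h (columns), with black dots where the adjusted p was under 0.01 and grey where a gene was not tested. Dots with GW3965 number 3 at 24 h and 14 at 48 h, and ABCC2 and ABCC4 are red with both LXR agonists at both times, while ABCA5 is the darkest blue with rosiglitazone.

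In subfamily A, ABCA2 was higher and ABCA10 lower than in DMSO with both LXR agonists at 48 h. ABCA5 was lower than in DMSO with rosiglitazone at both times. ABCA2 (ENSG00000107331.10), found in lysosomal and endosomal membranes and involved in sterol and sphingolipid handling, had 377, 419, 318 and 384 CPM in DMSO at 48 h. It had 675, 728, 730 and 650 CPM with GW3965 and 669, 514, 445 and 583 CPM with T0901317. All 8 agonist libraries lay above the 4 of DMSO. The change was 0.89 (log2, SE 0.13, adjusted p = 1.83e-05) with GW3965 and 0.56 (SE 0.13, adjusted p = 0.00204) with T0901317. Without DMSO replicate 3 or without T0901317 replicate 1 the latter was no longer called, with an adjusted p of up to 0.0118. The means of ABCA2 at 24 and 48 h were 672 and 375 CPM in DMSO and 738 and 553 CPM with T0901317. With GW3965 the mean was 696 CPM at both times. At 24 h, the 16 libraries ran from 427 to 888 CPM, and no drug's change was called. The 427 CPM belonged to GW3965 replicate 1, and the other GW3965 libraries had 688, 870 and 799 CPM.

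ABCA10 (ENSG00000154263.11) is a poorly characterised member of a chromosome 17 group of A genes that RefSeq places side by side, ABCA8, ABCA9, ABCA6, ABCA10 and ABCA5. At 48 h it had 4.87, 4.46, 5.03 and 5.05 CPM in DMSO, 3.19, 2.73, 3.36 and 2.39 CPM with GW3965 and 1.94, 2.82, 2.58 and 2.64 CPM with T0901317. The agonist libraries were all below DMSO. It was lower than in DMSO of that time by 0.73 (log2, SE 0.13, adjusted p = 0.000165) with GW3965 and by 0.96 (SE 0.14, adjusted p = 1.05e-05) with T0901317. At 24 and 48 h its means were 1.73 and 4.85 CPM in DMSO. They were 1.84 and 2.92 CPM with GW3965 and 2.44 and 2.5 CPM with T0901317. With rosiglitazone the 4 libraries at 48 h, from 3.49 to 4.43 CPM, also lay below DMSO, but the change of -0.28 was not called (adjusted p = 0.111).

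ABCA5 (ENSG00000154265.10), a lysosomal and late endosomal transporter, had the largest called fall from DMSO of any of these genes. In DMSO it had 1.76, 2.32, 1.88 and 2.79 CPM at 24 h and 4.69, 4.82, 5.35 and 6.42 CPM at 48 h. With rosiglitazone it had 1.46, 1.09, 1.47 and 0.697 CPM at 24 h and 1.51, 1.69, 1.66 and 1.95 CPM at 48 h. Every rosiglitazone library was below every DMSO library of its time. It fell by 0.88 (log2, SE 0.21, adjusted p = 0.00489) at 24 h and by 1.65 (SE 0.15, adjusted p = 6.5e-08) at 48 h. The 24 h call was lost without DMSO replicate 2 or 4 or rosiglitazone replicate 2 or 4, with adjusted p up to 0.0229. With GW3965 and T0901317 its changes at 48 h were 0.20 and 0.18 and were not called.

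ABCA7 and ABCA3 also passed the test at 48 h. ABCA7 (ENSG00000064687.7), a phospholipid exporter, stood at 136 ± 7.69 CPM in DMSO (SD, n = 4) and 205 ± 12 with GW3965, a rise of 0.59 (log2, SE 0.10, adjusted p = 4.72e-05). With rosiglitazone it stood at 175 ± 22.4 CPM and rose by 0.36 (SE 0.10, adjusted p = 0.00594), a call that library size scaling removed (0.18, adjusted p = 0.122). ABCA3 (ENSG00000167972.7), which loads surfactant lipids into the lamellar bodies of lung cells, was low throughout, with 18 to 36 counts in DMSO and 66 to 76 with T0901317 at 48 h. It rose by 1.07 (SE 0.30, adjusted p = 0.00778) with T0901317, and 9 of the 16 fits that left out 1 library lost that call. ABCA4, the retinoid transporter of the eye, and ABCA13 were tested and not called with any drug.

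**Figure D2:**
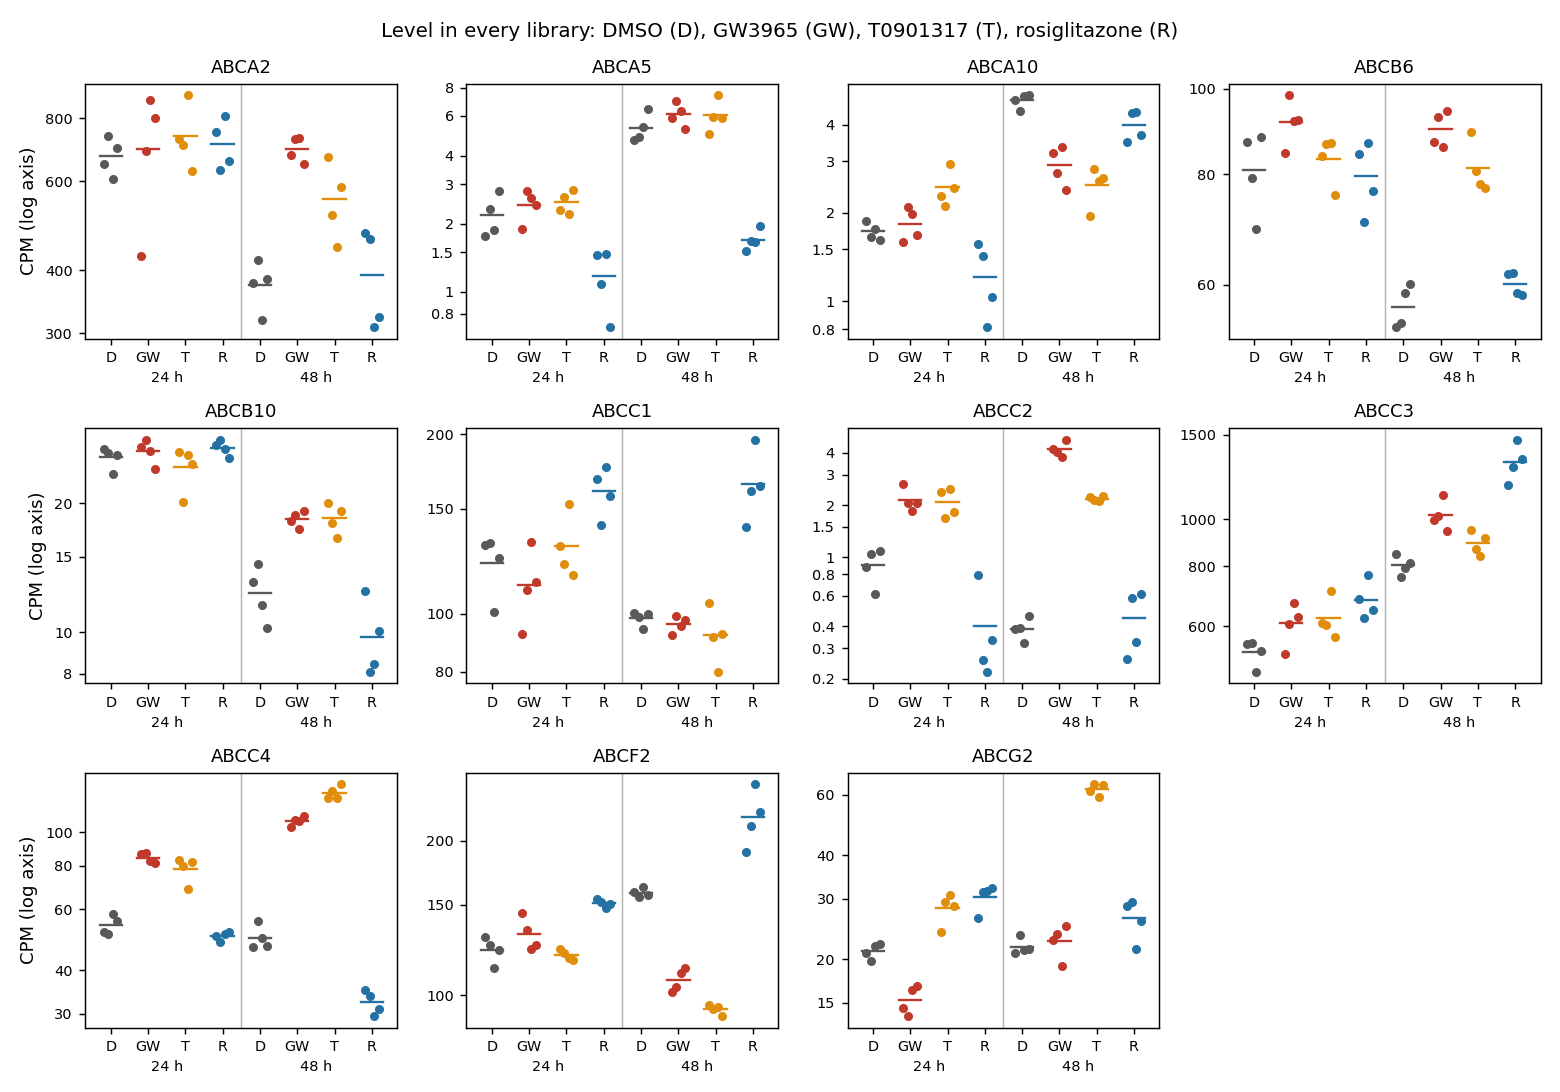
CPM (log axis) of 11 ABC transporter genes in each of the 32 libraries by group, with a short line at the mean of each group of 4. The LXR agonist libraries stand clear of DMSO for ABCC2 and ABCC4 at both times, ABCG2 with T0901317 rises to between 58.9 and 64.2 CPM at 48 h, and ABCA5 is low with rosiglitazone.

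Subfamily B includes the mitochondrial transporters. None of the 6 B genes tested at 24 h was called at that time with any drug, and 7 were tested at 48 h. In DMSO at 48 h ABCB6 (ENSG00000115657.7), a porphyrin transporter, had 53.7, 54.3, 58.7 and 60.1 CPM. It had 87, 92.9, 85.9 and 94.4 CPM with GW3965 and 89.4, 80.8, 78.1 and 77.1 CPM with T0901317. The agonist groups did not overlap DMSO. ABCB6 was higher than in DMSO by 0.67 (log2, SE 0.06, adjusted p = 3.6e-08) with GW3965 and by 0.52 (SE 0.06, adjusted p = 9.25e-07) with T0901317. ABCB10 (ENSG00000135776.4), an inner membrane transporter needed for haem synthesis, had 13.1, 14.4, 11.6 and 10.2 CPM in DMSO, 18.2, 18.7, 17.5 and 19.2 CPM with GW3965 and 20, 18, 16.6 and 19.2 CPM with T0901317. It was higher than in DMSO of that time by 0.58 (SE 0.12, adjusted p = 0.000448) and by 0.59 (SE 0.12, adjusted p = 0.000454). From 24 to 48 h the mean of ABCB10 went from 25.6 to 12.3 CPM in DMSO. It went from 26.4 to 18.4 CPM with GW3965 and from 24.3 to 18.4 CPM with T0901317. Rosiglitazone left ABCB6 at 58.5 to 61.8 CPM and ABCB10 at 8.08 to 12.5 CPM, and neither was called.

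Changes of ABCB8 and ABCB9 were smaller. ABCB8 (ENSG00000197150.7), tied to iron export from mitochondria, stood at 68.8 ± 5.74 CPM in DMSO at 48 h (SD, n = 4) and rose by 0.43 with GW3965, by 0.28 with T0901317 and by 0.34 with rosiglitazone. The last call was lost with library size scaling (0.16, adjusted p = 0.115), and the T0901317 call in 6 of 16 fits with 1 library left out (adjusted p up to 0.0326). ABCB9 (ENSG00000150967.12), a peptide transporter of lysosomes, rose by 0.28 (SE 0.07, adjusted p = 0.00336) with GW3965, a call that library size scaling and 3 of 16 fits with 1 library left out removed.

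ABCB1, P-glycoprotein, the best known drug efflux pump, had few reads. Its libraries had 13, 15, 21 and 20 counts in DMSO at 48 h, 38, 39, 42 and 19 with GW3965, 48, 60, 78 and 84 with T0901317 and 19, 6, 23 and 29 with rosiglitazone. T0901317 was above DMSO in every library, and 1 GW3965 library was at the DMSO level. ABCB1 (ENSG00000085563.8) rose by 1.59 (log2, SE 0.34, adjusted p = 0.000915) with T0901317, while its change with GW3965 was 0.70 (SE 0.36, adjusted p = 0.122). ABCB4, the phosphatidylcholine transporter of bile that lies next to ABCB1, had 6 to 25 counts in DMSO and 26 to 50 with T0901317 at 48 h and was not called (0.95, adjusted p = 0.0314).

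Subfamily C held the largest responses. In the RefSeq table of GRCh38.p14, 34 of the 44 genes had the letters before a transcript start, 52 starts in all, and 250 bases before the start were searched on both strands for the nuclear receptor half-site AGGTCA, for direct repeats of it with 4 bases between (DR4, the LXR type) or 1 base between (DR1, the PPARG type), each of which contains the half-site, for the antioxidant response element TGACNNNGC and for the E-box CACGTG. Printed here are the genes with the largest rises and the largest fall that have 1 start in the table, and ABCB6, where 2 motifs overlap. Capitals mark the matches to the half-site, the antioxidant response element or the E-box:
ABCC2 (chr10:99782390-99782639, plus strand): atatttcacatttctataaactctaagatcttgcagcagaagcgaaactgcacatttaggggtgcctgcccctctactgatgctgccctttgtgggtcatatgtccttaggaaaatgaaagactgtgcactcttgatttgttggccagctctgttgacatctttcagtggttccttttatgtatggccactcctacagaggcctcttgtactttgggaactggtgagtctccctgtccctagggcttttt
ABCC4 (chr13:95301452-95301701, minus strand): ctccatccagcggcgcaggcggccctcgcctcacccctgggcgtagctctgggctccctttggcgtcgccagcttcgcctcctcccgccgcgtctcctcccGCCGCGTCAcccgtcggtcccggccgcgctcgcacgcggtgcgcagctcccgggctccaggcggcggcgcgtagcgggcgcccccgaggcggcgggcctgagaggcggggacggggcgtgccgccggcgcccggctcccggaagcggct
ABCB6 (chr2:219218959-219219208, minus strand): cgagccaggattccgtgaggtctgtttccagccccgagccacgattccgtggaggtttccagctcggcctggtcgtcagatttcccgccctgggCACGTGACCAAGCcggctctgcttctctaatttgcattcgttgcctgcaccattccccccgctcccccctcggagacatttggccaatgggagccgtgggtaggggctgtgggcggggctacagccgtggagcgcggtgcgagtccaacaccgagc
ABCA5 (chr17:69327134-69327383, minus strand): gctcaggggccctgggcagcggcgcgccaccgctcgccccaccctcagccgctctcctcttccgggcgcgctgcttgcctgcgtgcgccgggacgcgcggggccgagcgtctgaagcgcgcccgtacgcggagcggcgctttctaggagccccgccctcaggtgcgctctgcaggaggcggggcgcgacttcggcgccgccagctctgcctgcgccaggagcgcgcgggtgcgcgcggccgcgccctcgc
ABCC2 and ABCA5 held none of these motifs in this window. The window of ABCC4 held an antioxidant response element on the reverse strand, and that of ABCB6 an E-box and an antioxidant response element that share bases. Bases G and C made up 45.6% of the ABCC2 window and 80.4% of the ABCC4 window. Only exact letters were searched. Neither paired half-site was found at any of the 52 starts, where 0.0142% and 0.0171% of 35116 starts of all genes held one. At such rates 52 starts are too few to differ from all genes by holding none. The single half-site was at 2 of the 52 starts, in ABCF1 and ABCG2, against 12.1% of all starts. The antioxidant response element was at 9 of the 52 starts, in 9 genes, against 10.9%, and the E-box at 8, in 7 genes, against 6.34%. Overlapping windows of 2 ABCG2 starts hold the same E-box, so starts of 1 gene are not independent.

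ABCC2 (ENSG00000023839.6), the apical pump MRP2 for glutathione and glucuronide conjugates, changed most. In DMSO it had 0.881, 1.05, 0.612 and 1.09 CPM at 24 h and 0.386, 0.389, 0.32 and 0.456 CPM at 48 h, the latter 13 to 16 counts per library. With GW3965 it had 2.65, 2.05, 1.86 and 2.06 CPM at 24 h and 4.2, 4.04, 3.81 and 4.76 CPM at 48 h. With T0901317 it had 2.38, 1.69, 2.49 and 1.83 CPM at 24 h and 2.22, 2.13, 2.12 and 2.26 CPM at 48 h. All agonist libraries lay above DMSO at both times. At 48 h it rose 10.8-fold with GW3965 (log2 3.44, SE 0.20, adjusted p = 9.24e-11) and 5.61-fold with T0901317 (log2 2.49, SE 0.20, adjusted p = 1.08e-08). At 24 h it rose by 1.26 (SE 0.26, adjusted p = 0.00462) with GW3965 and was just outside the limit with T0901317 (1.23, SE 0.26, adjusted p = 0.0112). The 24 h call was lost without DMSO replicate 1, 2 or 3 or without GW3965 replicate 1, 2 or 4, with adjusted p up to 0.0251. The rosiglitazone libraries ran from 0.219 to 0.795 CPM at 24 h and from 0.26 to 0.618 CPM at 48 h, overlapping DMSO.

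ABCC4 (ENSG00000125257.9), the pump MRP4 for cyclic nucleotides and prostanoids, moved with all 3 drugs. In DMSO it had 51.5, 50.8, 58.3 and 55.5 CPM at 24 h and 46.5, 55.5, 49.5 and 47 CPM at 48 h. With GW3965 it had 86.4, 87.4, 82.5 and 81.4 CPM and then 104, 108, 108 and 111 CPM. With T0901317 it had 83.2, 79.8, 68.5 and 82.1 CPM and then 126, 132, 125 and 138 CPM. It rose by 0.64 (log2, SE 0.06, adjusted p = 9.55e-07) and 1.12 (SE 0.07, adjusted p = 1.46e-10) with GW3965, and by 0.54 (SE 0.06, adjusted p = 2.09e-05) and 1.39 (SE 0.07, adjusted p = 6.97e-12) with T0901317. With rosiglitazone it had 35, 33.8, 29.5 and 31 CPM at 48 h, below every DMSO library, and fell by 0.62 (SE 0.07, adjusted p = 6.1e-07). At 24 h the rosiglitazone libraries had 48.2 to 51.4 CPM and the change of -0.11 was not called.

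ABCC3 and ABCC1 rose with rosiglitazone. ABCC3 (ENSG00000108846.10), the basolateral pump MRP3 for glucuronides and bile salts, had 551, 556, 483 and 532 CPM in DMSO at 24 h and 849, 761, 794 and 813 CPM at 48 h. With rosiglitazone it had 683, 625, 767 and 648 CPM and then 1180, 1282, 1463 and 1336 CPM. It rose by 0.36 (log2, SE 0.08, adjusted p = 0.00379) at 24 h and by 0.71 (SE 0.07, adjusted p = 1.47e-07) at 48 h. It also rose by 0.34 (SE 0.07, adjusted p = 0.000379) with GW3965 at 48 h, where it had 997, 1014, 1123 and 947 CPM. ABCC1 (ENSG00000103222.12), the pump MRP1 for leukotriene C4 and glutathione conjugates, had 100, 98.6, 94.4 and 99.7 CPM in DMSO at 48 h and 140, 160, 196 and 164 CPM with rosiglitazone. It rose by 0.75 (SE 0.08, adjusted p = 1.06e-06) there and was not called with either LXR agonist (-0.03 and -0.09). The 24 h call of ABCC3 was lost without DMSO replicate 3 or 4 or without rosiglitazone replicate 1 or 3, with adjusted p up to 0.018.

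ABCC6 and ABCC8 had few reads. ABCC6 (ENSG00000091262.8), needed for the release of ATP that prevents calcification of soft tissue and a neighbour of ABCC1, had 12, 29, 18 and 9 counts in DMSO at 48 h, 41, 21, 50 and 59 with GW3965 and 77, 71, 89 and 68 with T0901317. It rose by 1.77 (log2, SE 0.28, adjusted p = 3.87e-05) with T0901317, while its change with GW3965 was 0.97 (SE 0.29, adjusted p = 0.0102). Its near-identical copies ABCC6P1 and ABCC6P2 had 0 to 28 and 27 to 480 counts per library, so reads could be split between them. At 48 h ABCC6P2 was lower with the LXR agonists, at 6.19 CPM in DMSO, 3.99 with GW3965 and 3.86 with T0901317. ABCC6P1 was higher, at 0.113, 0.237 and 0.439 CPM in the same order. Whether shared reads affect the ABCC6 change was not tested. ABCC8 (ENSG00000006071.6), the sulphonylurea receptor of ATP-sensitive potassium channels, had 46, 40, 59 and 41 counts in DMSO at 48 h, 16, 18, 19 and 28 with GW3965 and 27, 16, 26 and 37 with T0901317. It was lower than in DMSO of that time by 1.51 (SE 0.24, adjusted p = 4.38e-05) and by 1.20 (SE 0.24, adjusted p = 0.000383). At 24 and 48 h its means were 0.29 and 1.3 CPM in DMSO. They were 0.251 and 0.452 CPM with GW3965 and 0.257 and 0.56 CPM with T0901317. ABCC5, ABCC10 and ABCC11 were tested and not called with any drug.

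In subfamily D, ABCD3 rose with T0901317 at 48 h. ABCD3 (ENSG00000117528.7), which imports long and branched acyl groups into peroxisomes, stood at 62.7 ± 2.73 CPM in DMSO at 48 h (SD, n = 4) and 80.4 ± 2.84 with T0901317, a rise of 0.36 (log2, SE 0.05, adjusted p = 1.76e-05). Its change with GW3965 was 0.11 and was not called. ABCD4, which works in the release of vitamin B12 from lysosomes, ran from 26.6 to 61.9 CPM over the 32 libraries and was not called with any drug (lowest adjusted p = 0.016).

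Among the members without membrane domains, ABCF2 fell with both LXR agonists at 48 h and rose with rosiglitazone at both times. ABCF2 (ENSG00000033050.3) had 130, 126, 113 and 123 CPM in DMSO at 24 h and 159, 155, 163 and 157 CPM at 48 h. At 48 h it had 102, 104, 110 and 113 CPM with GW3965, 95.8, 94, 95.1 and 91 CPM with T0901317 and 190, 214, 258 and 228 CPM with rosiglitazone. No library of these groups overlapped DMSO, with both LXR agonists below it and rosiglitazone above. It fell by 0.56 (log2, SE 0.07, adjusted p = 2.25e-06) with GW3965 and by 0.76 (SE 0.07, adjusted p = 6.39e-08) with T0901317. It rose with rosiglitazone by 0.30 (SE 0.06, adjusted p = 0.000723) at 24 h and by 0.49 (SE 0.07, adjusted p = 1.9e-05) at 48 h. At 24 h, library size scaling removed the rosiglitazone calls of ABCF2 (0.21, adjusted p = 0.0308) and ABCF3 (0.18, adjusted p = 0.0302).

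ABCF1 (ENSG00000204574.6), which promotes the start of translation, fell by 0.20 with both GW3965 and T0901317 at 48 h, and its change with rosiglitazone was 0.15 and was not called. Both falls of ABCF1 missed the limit without the low-count filter (adjusted p = 0.0186 and 0.0154), that with T0901317 also with library size scaling (0.0267), and they were lost in 2 and 1 of 16 fits with 1 library left out. ABCF3 (ENSG00000161204.7) rose by 0.27 at 24 h and 0.24 at 48 h with rosiglitazone and by 0.21 with GW3965 at 48 h. ABCE1 (ENSG00000164163.6), which splits ribosomes for reuse, had 106 ± 2.41 CPM in DMSO and 133 ± 5.3 with rosiglitazone at 48 h (SD, n = 4), a rise of 0.32 (log2, SE 0.06, adjusted p = 0.000402). With library size scaling the 48 h calls of ABCE1 and ABCF3 with rosiglitazone were lost (0.15 and 0.06, adjusted p = 0.0921 and 0.512), and the call of ABCF3 with GW3965 was lost in 8 of 16 fits that left out 1 library.

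ABCG2 (ENSG00000118777.6), the breast cancer resistance protein, an efflux pump for drugs and urate, was the single expressed G member, and its levels differed between the LXR agonists at both times. In DMSO it had 20.9, 19.7, 21.8 and 22.1 CPM at 24 h and 21, 23.5, 21.2 and 21.5 CPM at 48 h. With GW3965 it had 14.5, 13.7, 16.3 and 16.7 CPM and then 22.7, 23.7, 19.2 and 25.1 CPM. With T0901317 it had 24.1, 29.4, 30.7 and 28.6 CPM and then 61.6, 64.2, 58.9 and 63.8 CPM. At 24 h the GW3965 libraries were all below DMSO and those of T0901317 all above, and at 48 h T0901317 alone of the LXR agonists was clear of DMSO. It fell by 0.46 (log2, SE 0.09, adjusted p = 0.00173) with GW3965 at 24 h and had a change of 0.06 (SE 0.09, adjusted p = 0.643) at 48 h. With T0901317 it rose by 0.41 (SE 0.08, adjusted p = 0.00791) and by 1.51 (SE 0.09, adjusted p = 1.82e-10). With rosiglitazone it had 26.4, 31.4, 31.5 and 32.1 CPM at 24 h, a rise of 0.52 (SE 0.08, adjusted p = 0.000152), and 28.5, 29.4, 21.4 and 25.9 CPM at 48 h, a change of 0.27 that was not called (adjusted p = 0.0261). The 24 h call with T0901317 was lost with library size scaling and in 10 of 16 fits with 1 library left out (adjusted p up to 0.0378), and the 24 h call with GW3965 without GW3965 replicate 2 (adjusted p = 0.0105).

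GW3965 and T0901317 were given at the same dose and times, and their libraries were compared directly. At 24 h, 1 of 29 genes differed, ABCG2, which was lower with GW3965 by 0.88 (log2, SE 0.09, adjusted p = 4.73e-06), where 0.79% of all genes differed. At 48 h, 5 of 31 differed, where 8.36% of all genes did. ABCC2 was higher with GW3965 than with T0901317 by 0.95 (SE 0.15, adjusted p = 0.000422). With GW3965, ABCG2 was lower than with T0901317, by 1.45 (the difference was -1.45, SE 0.09, adjusted p = 9.03e-09), and the differences of ABCC4 and ABCD3 were -0.27 (SE 0.06, adjusted p = 0.00648) and -0.24 (SE 0.05, adjusted p = 0.00348). ABCB1 differed by -0.88 (SE 0.31, adjusted p = 0.0598), ABCC6 by -0.80 (SE 0.25, adjusted p = 0.0328) and ABCB4 by -1.05 (SE 0.34, adjusted p = 0.0359), which did not pass the limit, and such a p does not show that the agonists acted alike. The 48 h count went from 5 to 2 without GW3965 replicate 3, without GW3965 replicate 4 or without T0901317 replicate 2, to 3 without any other library of these groups except T0901317 replicate 1, and to 7 without that one. With library size scaling 1 was higher and 3 were lower, and the median of all genes moved to -0.10.

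**Figure D3:**
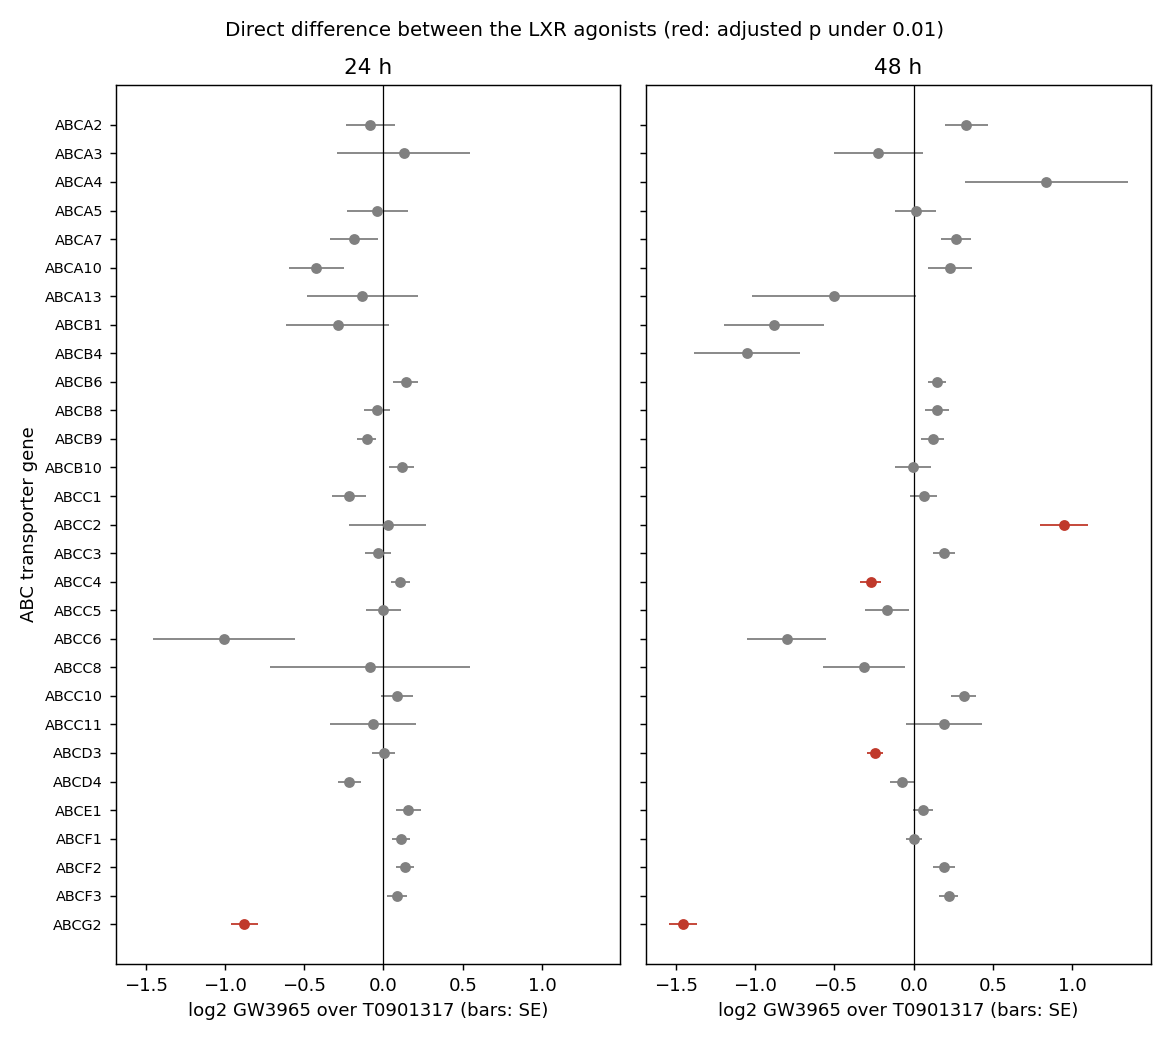
Log2 ratio of GW3965 to T0901317 with its SE for 29 of the tested ABC transporter genes at 24 h (left) and 48 h (right), in red where the adjusted p was under 0.01. ABCG2 is the single red point at 24 h (-0.88), and at 48 h ABCG2 (-1.45), ABCC4 (-0.27) and ABCD3 (-0.24) lie to the left and ABCC2 (0.95) to the right.

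Whether a response differed between 48 and 24 h was tested as a difference of differences over all 32 libraries, in 23140 genes, 32 of them ABC transporter genes. With GW3965, 12 differed, 10 of them toward a higher and 2 toward a lower value at 48 h, where 21.6% of all genes differed. ABCC2 stood out with 2.17 (log2, SE 0.34, adjusted p = 9.19e-06), and ABCF2 fell by 0.67 (SE 0.09, adjusted p = 8.34e-07). Without DMSO 48 h replicate 3 the 12 went to 7. With T0901317, 9 differed, 7 toward higher and 2 toward lower, where 17.4% of all genes did. ABCG2 gave 1.10 (SE 0.13, adjusted p = 4.99e-08) and ABCC4 0.86 (SE 0.09, adjusted p = 7.18e-09), and ABCA10 gave -1.46 (SE 0.21, adjusted p = 3.24e-06). ABCB4 was also among the 9, named after its values were seen, with a difference of 2.95 (SE 0.84, adjusted p = 0.00847) that rests on 0 to 5 counts per library with T0901317 at 24 h and was lost in 12 of 32 fits with 1 library left out. With rosiglitazone 1 gene differed, ABCC4 (-0.50, SE 0.09, adjusted p = 0.000753), where 2.45% of all genes did, and the count was 3 without rosiglitazone 48 h replicate 1 and 2 without rosiglitazone 24 h replicate 1 or 48 h replicate 2. Library size scaling kept these counts and splits at 12, 9 and 1, and moved the median of all genes to 0.11 for T0901317.

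**Figure D4:**
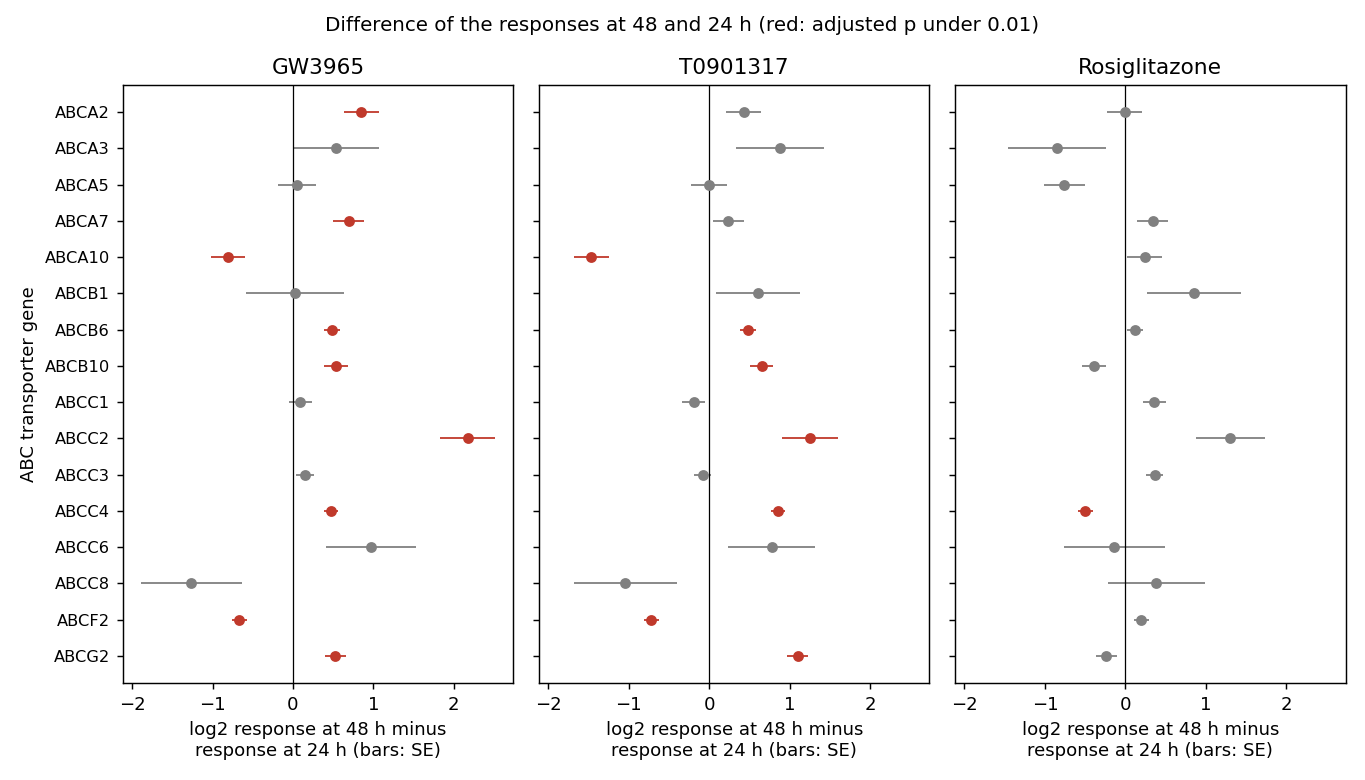
Difference between the log2 response at 48 h and that at 24 h, with its SE, for 16 ABC transporter genes called with at least a 1.5-fold change, 1 panel per drug, in red where the adjusted p was under 0.01. Most red points lie to the right for the LXR agonists, led by ABCC2 with GW3965 at 2.17, with ABCA10 and ABCF2 to the left, and ABCC4 is the single red point for rosiglitazone.

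The DMSO groups themselves differed. Of the 32 genes, 8 were higher and 10 lower in DMSO at 48 h than at 24 h, where 38.6% of all genes differed, and time and the separate tables cannot be told apart in this contrast. ABCA10 was 2.75-fold (log2 1.46, SE 0.15, adjusted p = 1.11e-09) and ABCA5 2.4-fold (log2 1.26, SE 0.17, adjusted p = 1.23e-07) higher at 48 h. ABCC8, with few reads, was higher by 2.08 (log2, adjusted p = 0.000102), from 0.29 ± 0.195 to 1.3 ± 0.136 CPM (SD, n = 4). ABCB10 fell by 1.08 (SE 0.10, adjusted p = 2.1e-10), ABCB6 by 0.54 (SE 0.07, adjusted p = 1.36e-07), ABCC2 by 1.23 (SE 0.28, adjusted p = 0.00049) and ABCA2 by 0.87 (SE 0.16, adjusted p = 2.01e-05). For ABCB6, the GW3965 groups stood at a like level at both times, between 84.6 and 98.3 CPM at 24 h and between 85.9 and 94.4 CPM at 48 h. ABCG2 was at 21.1 ± 1.07 and 21.8 ± 1.16 CPM (SD, n = 4) in the DMSO groups and was not called.

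Over the 8 group means, the genes most like ABCC2 among 14512 candidates were U52111.14 (Pearson r = 0.988), RGS11 (0.981) and CLCN6 (0.965), and among the ABC transporter genes ABCC4 (0.879) and ABCB6 (0.766). For ABCC6 the most like genes were HLA-C (0.983), PPIC (0.981) and ATP6AP2 (0.978). These are descriptions over 8 groups that share libraries, depth and treatments.

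Genes that work with the transporters were counted from fixed lists, with up to 2 of each list that had the largest changes in any drug comparison, and are given at 48 h. Their counts and log2 medians are to be read beside all genes, of which 16.1%, 14% and 12.3% were called higher and 17.5%, 16.1% and 13.1% lower with GW3965, T0901317 and rosiglitazone, with medians of 0.00, 0.01 and -0.01. Of 8 partners of ABCE1 and the F proteins in translation, 7 fell and 1 rose with GW3965 and 6 fell and 1 rose with T0901317 at 48 h, with medians of -0.69 and -0.65 (log2), and 4 rose and 0 fell with rosiglitazone, with a median of 0.27. The initiation factor subunits EIF3J and EIF2S2 had the largest changes, EIF3J at -0.92 and -0.94 with GW3965 and T0901317 and EIF2S2 at -0.90 and -0.70. Of 8 mitochondrial iron and haem genes, 2 rose and 1 fell with GW3965 and 4 rose and 1 fell with T0901317 at 48 h. CPOX and PPOX, which encode enzymes of haem synthesis, rose with T0901317 by 1.01 and 0.55 and were also called higher with GW3965. With rosiglitazone 1 of the 8 rose and 1 fell, and the medians with the 3 drugs, in the same order, were 0.00, 0.12 and -0.13. Of 7 peroxisomal genes, 4 rose and 1 fell with rosiglitazone at 48 h, with the fatty acid oxidation gene EHHADH up by 0.98, and 2 and 3 rose with GW3965 and T0901317. The medians were 0.09, 0.11 and 0.46.

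Among the 7 of 9 bile acid and xenobiotic genes tested at 48 h, 2 rose and 1 fell with GW3965, 3 rose and 1 fell with T0901317, and 3 rose and 1 fell with rosiglitazone, with medians of 0.18, 0.55 and 0.81. SLC10A2, the ileal bile acid importer, stayed under 1 CPM, at 0.0148 ± 0.0297 CPM in DMSO and 0.298 ± 0.0405 with GW3965 at 48 h (SD, n = 4). FABP6, the ileal bile acid binding protein, was also low at 48 h, with 0.177 ± 0.0435 CPM in DMSO. It had 1.08 ± 0.476 CPM with GW3965 and 0.581 ± 0.146 CPM with T0901317, rises of 2.60 and 1.72 (log2). Of 13 nuclear receptor and sensor genes tested at 48 h, 5 rose and 5 fell with GW3965, 2 rose and 5 fell with T0901317 and 4 rose and 1 fell with rosiglitazone, with medians of 0.14, 0.01 and 0.06. NR1H4, which encodes the bile acid receptor FXR, had 0.161 ± 0.0615 CPM in DMSO and 2.48 ± 0.56 with rosiglitazone at 24 h (SD, n = 4), a rise of 3.93, and had 0 counts in all 4 T0901317 libraries of that time. PPARD, a fatty acid receptor, rose by 1.94 with rosiglitazone at 48 h and changed by -0.55 and -0.74 with the LXR agonists. Of 11 sterol transport genes tested, 5 rose and 2 fell with GW3965, 4 rose and 2 fell with T0901317 and 5 rose and 2 fell with rosiglitazone at 48 h, with medians of 0.57, 0.38 and 0.33. SREBF1, the regulator of lipid synthesis, rose by 2.16, 1.48 and 0.48 with GW3965, T0901317 and rosiglitazone, and MYLIP, which marks the LDL receptor for degradation, by 1.74, 1.66 and 0.63. Of the 5 ABC genes outside the group described, ABCA1, ABCG1, CFTR, TAP1 and TAP2, 2 rose and 1 fell with GW3965, 3 rose and 0 fell with T0901317 and 1 rose and 1 fell with rosiglitazone at 48 h, with medians of -0.16, 0.52 and 0.09. ABCA1 and ABCG1 rose by 5.77 and 3.38 with GW3965 and by 5.12 and 3.04 with T0901317.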

How the data were processed

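RNA from 32 HT29 samples was sequenced as paired-end mRNA libraries. The authors deposited 1 table of raw read counts per gene for each time point, and these counts were used as deposited. The submitters' processing notes name TopHat, Cufflinks and hg19, with no version; no source used here gives the counting program or its strand setting, so antisense or overlapping genes cannot be told apart. The 50 ChIP-seq and input samples were not used here, because no annotation of their build was given, and the planned comparison of receptor sites with the transporters' start sites was not run. Groups came from the labels.

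Genes were filtered with filterByExpr, scaled by TMM and tested with edgeR 4.0.16 (quasi-likelihood) on limma 3.58.1 and R 4.3.3, with all 16 libraries of a time point in 1 fit. Responses at 48 and 24 h were compared in a fit of all 32. P-values were adjusted over all genes tested by Benjamini-Hochberg, with 0.01 as the limit. CPM divides a count by the scaled library size. The members and gene lists were chosen with earlier results of these data known. Genes named with values are those called with a change of at least 1.5-fold in a drug comparison, 17 in all, and the 12 of them whose mean log2 CPM was 0 or more and whose changes were largest were to be shown by library; the counts of ABCB1, ABCC6 and ABCC8 per library were added after their values were seen, and 7 genes called below 1.5-fold are described in brief. Alternatives were median-ratio size factors, library size alone, no filter, a replicate block, the libraries of 1 drug and DMSO alone, DESeq2 1.42.0, and leaving out each library. The test was tried on simulated counts first. A few genes counted here are not reported by name. Replicate numbers were not treated as pairs. Replicates differed beyond counting noise in all 48 pairs, so none was a duplicate (chi-square per gene 3.66 to 73.2). Pairs with GW3965 24 h replicate 1 gave 31.8, 73.2 and 66.4, and the other GW3965 pairs of that time 5.3 to 11.5. Leaving that library out took the genes called with GW3965 at 24 h, over all genes, from 406 to 551 higher and from 189 to 228 lower. Promoters came from RefSeq (GRCh38.p14), and all 44 symbols matched its gene table.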

Additional observations from a re-analysis of the deposited data

Results flagged for a closer look

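In rosiglitazone at 24 h, ABCG2 replicate 1 had 26.4 CPM, apart from the other libraries of its group, at 31.4 to 32.1 CPM. It was the 1 of 88 groups of 4 in which the highest or lowest library stood apart by Dixon's limit, and chance alone gives about 1 in 20.

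Differences between the response at 48 h and that at 24 h passed the test in the fit of all 32 libraries for the following transporter genes, in log2 units. All those listed were called with a change of at least 1.5-fold in a drug comparison. Others that passed are left out, among them ABCB8 (0.43) and ABCB9 (0.42) with GW3965 and ABCD3 (0.40) with T0901317. With GW3965 the listed differences were 0.85 for ABCA2, 0.69 for ABCA7, -0.81 for ABCA10, 0.49 for ABCB6, 0.53 for ABCB10, 2.17 for ABCC2, 0.48 for ABCC4, -0.67 for ABCF2 and 0.52 for ABCG2. With T0901317 they were -1.46 for ABCA10, 0.48 for ABCB6, 0.66 for ABCB10, 1.25 for ABCC2, 0.86 for ABCC4, -0.72 for ABCF2 and 1.10 for ABCG2. With rosiglitazone the value was -0.50 for ABCC4. In 32 fits that each left out 1 library, the T0901317 value of ABCC2 missed the limit in 12 (adjusted p up to 0.0239), and the GW3965 values of ABCA7 in 9 (up to 0.0162), of ABCB10 in 6 (up to 0.0151), of ABCA2 without DMSO 48 h replicate 3 (0.0105) and of ABCA10 without GW3965 48 h replicate 4 (0.0115). The DMSO groups of the 2 times differ in 18 of the 32 transporter genes tested, and each of these values includes the change of DMSO between the times. With T0901317, ABCC2 had means of 2.1 and 2.18 CPM at 24 and 48 h, beside 0.907 and 0.388 in DMSO. ABCA10 had 2.44 and 2.5 CPM with T0901317, beside 1.73 and 4.85 in DMSO. By contrast, ABCG2 had 28.2 and 62.1 CPM with T0901317, beside 21.1 and 21.8 in DMSO. The share of DMSO in each value was not tested.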

How the results depend on the processing

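No value for a single gene reversed its direction. Counts could: with library size scaling, rosiglitazone had more genes called lower than higher at both times, the opposite of the main fit. The rosiglitazone count at 24 h went from 5 to 8 with DESeq2. Leaving out 1 library gave 2 to 4 genes for GW3965 and 3 to 7 for rosiglitazone at 24 h, 2 to 7 for GW3965 against T0901317 at 48 h, and 7 to 12 for GW3965 and 1 to 3 for rosiglitazone in the comparison of responses between times. The count for GW3965 at 24 h was 2 without GW3965 replicate 2, and that for rosiglitazone was 3 without DMSO replicate 3, DMSO replicate 4 or rosiglitazone replicate 4. The cause was not tested. Leaving out libraries of the fit of all 32 was chosen after seeing the data. Under the other alternatives, 485 of 508 values for single genes kept their side of the limit and 23 did not, and with a library left out 2052 of 2224 did and 172 did not. Same-numbered libraries correlated between -0.41 and 0.299 in their deviations, with 4 of 24 pairs over 0.1, so the numbers were not taken to pair them. With a replicate block, the counts with GW3965, T0901317 and rosiglitazone were 4, 3 and 4 at 24 h and 16, 18 and 11 at 48 h, those for GW3965 against T0901317 were 1 and 6, those for the responses between times were 12, 9 and 1, and that for DMSO at 48 against 24 h was 17. Under the block, ABCA5 with rosiglitazone at 24 h and ABCA3 with T0901317 at 48 h were no longer called. With CPM of at least 0.5 or a count of at least 10, 29 genes were expressed in place of 26. Alternatives for the ChIP-seq comparison were not run. Depth limits the genes with few counts, ABCB1, ABCB4, ABCC6, ABCC8 and ABCA3 among them.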
